A study of Homo sapiens with 12 samples.

Results

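The transcripts of 9 genes that define hepatocyte identity or are hallmark products of the hepatocyte were followed in human liver spheroid co-cultures: the transcription factor genes HNF4A, NR5A2, FOXA1, FOXA2, FOXA3 and CEBPA and the plasma protein genes ALB, AFP and TTR. They were taken by symbol, not by a cut on their values, as 9 of the 16705 genes in the table of expression values. The choice was made with earlier results of these data known. All 9 were in the table and all 9 passed the filter on low values. RNA had been sequenced from 12 libraries, 3 in each of 4 groups: untreated spheroids at 24 h and at 144 h, and spheroids exposed to 1% TPN for 24 h or 144 h. TPN is total parenteral nutrition, a clinical mixture of amino acids with electrolytes, glucose and lipid emulsion to which trace elements and vitamins were added. Every spheroid was a co-culture of C3A cells, a clone of the HepG2 hepatoma line, with a smaller number of LX-2 cells, an immortalised hepatic stellate cell line, and spheroids were pooled for each library. The hepatocyte genes therefore come from 1 tumour-derived clone, and the samples hold no primary hepatocytes.

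Hepatocyte identity rests on a small circuit of transcription factors that bind each other's promoters and those of the liver's secreted proteins. HNF4A is a nuclear receptor at the centre of that circuit, the FOXA proteins open chromatin at liver enhancers, CEBPA couples the differentiated state to cell cycle exit, and NR5A2 regulates bile acid and cholesterol genes. ALB encodes albumin, the main protein of plasma. AFP encodes alpha-fetoprotein, its fetal relative, which hepatomas often express again, and TTR encodes transthyretin, the carrier of thyroid hormone and of retinol-binding protein.

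ALB and AFP lie side by side on chromosome 4 and arose from one ancestral gene. Their RefSeq promoters are shown because the same factors whose transcripts were measured here are known to act on them. Each line holds the 250 bases before the RefSeq start on build GRCh38.p14, plus strand, with capitals marking matches to the motifs searched on both strands: TGTTTNC for FOXA, TTGCNNAA for C/EBP, CAAGGNCA for NR5A2, CAAAGTCCA for HNF4, the CCAAT and TATAAA boxes and 1 HNF1 motif.
ALB, chr4:73404037-73404286: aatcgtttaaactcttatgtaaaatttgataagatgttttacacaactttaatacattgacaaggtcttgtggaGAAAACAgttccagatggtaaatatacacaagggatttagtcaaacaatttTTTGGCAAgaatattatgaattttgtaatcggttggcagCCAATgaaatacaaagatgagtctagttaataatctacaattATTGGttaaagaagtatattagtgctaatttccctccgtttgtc
AFP, chr4:73435971-73436220: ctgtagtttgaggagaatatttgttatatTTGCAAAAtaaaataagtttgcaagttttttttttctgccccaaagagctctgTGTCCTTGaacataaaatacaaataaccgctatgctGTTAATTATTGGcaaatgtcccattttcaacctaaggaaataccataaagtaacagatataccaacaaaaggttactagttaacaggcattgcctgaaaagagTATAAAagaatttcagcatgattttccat
In ALB a FOXA match lay at -176 to -170, a C/EBP match at -125 to -118 and CCAAT matches at -86 to -82 and -44 to -40, counted from the base before the start as -1. AFP held a C/EBP match at -221 to -214, an NR5A2 match at -168 to -161, an HNF1 match at -132 to -123 that overlaps a CCAAT match at -125 to -121, and a TATAAA box at -29 to -24. Neither window held the HNF4 letters searched, and ALB held no exact match to the HNF1 or TATAAA letters, which does not exclude variant sites. Of 35116 promoters of the same length, 15.5% held the FOXA motif, 9.05% the C/EBP motif, 4.51% the NR5A2 motif, 0.296% the HNF1 motif, 0.325% the HNF4 motif, 32.0% CCAAT and 10.7% TATAAA. Apart from the HNF1 match, the motifs matched here thus each occur in 4.51% to 32.0% of promoters. RefSeq promoters were matched for 7 of the 9 genes. In the authors' table, on GRCh38.p13, the ALB gene spans chr4:73397114-73421482, AFP chr4:73431159-73462519, TTR chr18:31591877-31598821, HNF4A chr20:44355699-44434596 and NR5A2 chr1:200027710-200177415. FOXA1 spans chr14:37587017-37596059, FOXA2 chr20:22580998-22619058, FOXA3 chr19:45864326-45873797 and CEBPA chr19:33299934-33302564.

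Expression is given as FPKM, a count of fragments relative to the length of the transcript and to all mapped fragments of the library, so levels of different genes can be compared per length. The FPKM values of a library summed to between 561657 and 583722, and the steps between low values put the depth of each library near 1.79e+07 fragments, at which 1 FPKM on a transcript of 2000 bases stands for 35.8 fragments. Changes were tested on log2(FPKM + 0.1) with limma in 1 model of the 4 groups over the 11713 genes with a mean of at least 0.5 FPKM, and a gene was called at a Benjamini-Hochberg adjusted p below 0.05. The added 0.1 understates changes of genes at low FPKM. The p values rest on the spread between libraries within groups, pooled over the 4 groups and moderated across genes by limma. The study describes the 3 libraries of a group as independent experiments. In bulk RNA, fewer cells of a type and less of its RNA per cell cannot be told apart.

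The 9 genes spanned a wide range of expression. ALB ranked between 2 and 19 among all genes over the 12 libraries and AFP between 4 and 34, whereas TTR ranked between 154 and 264. HNF4A was the most abundant of the factors in every group, at ranks 792 to 1172, and CEBPA ranked 1220 to 3005. FOXA2 ranked 1848 to 3274, FOXA3 2575 to 4062 and FOXA1 4668 to 7509. NR5A2 stood far below at ranks 10612 to 11239. The 3 plasma protein genes together took 1.59% to 1.62% of the FPKM sum in untreated spheroids at 24 h and 1.39% to 1.43% after TPN. At 144 h they took 1.82% to 2.01% in untreated spheroids and 1.13% to 1.25% after TPN.

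**Figure D1:**
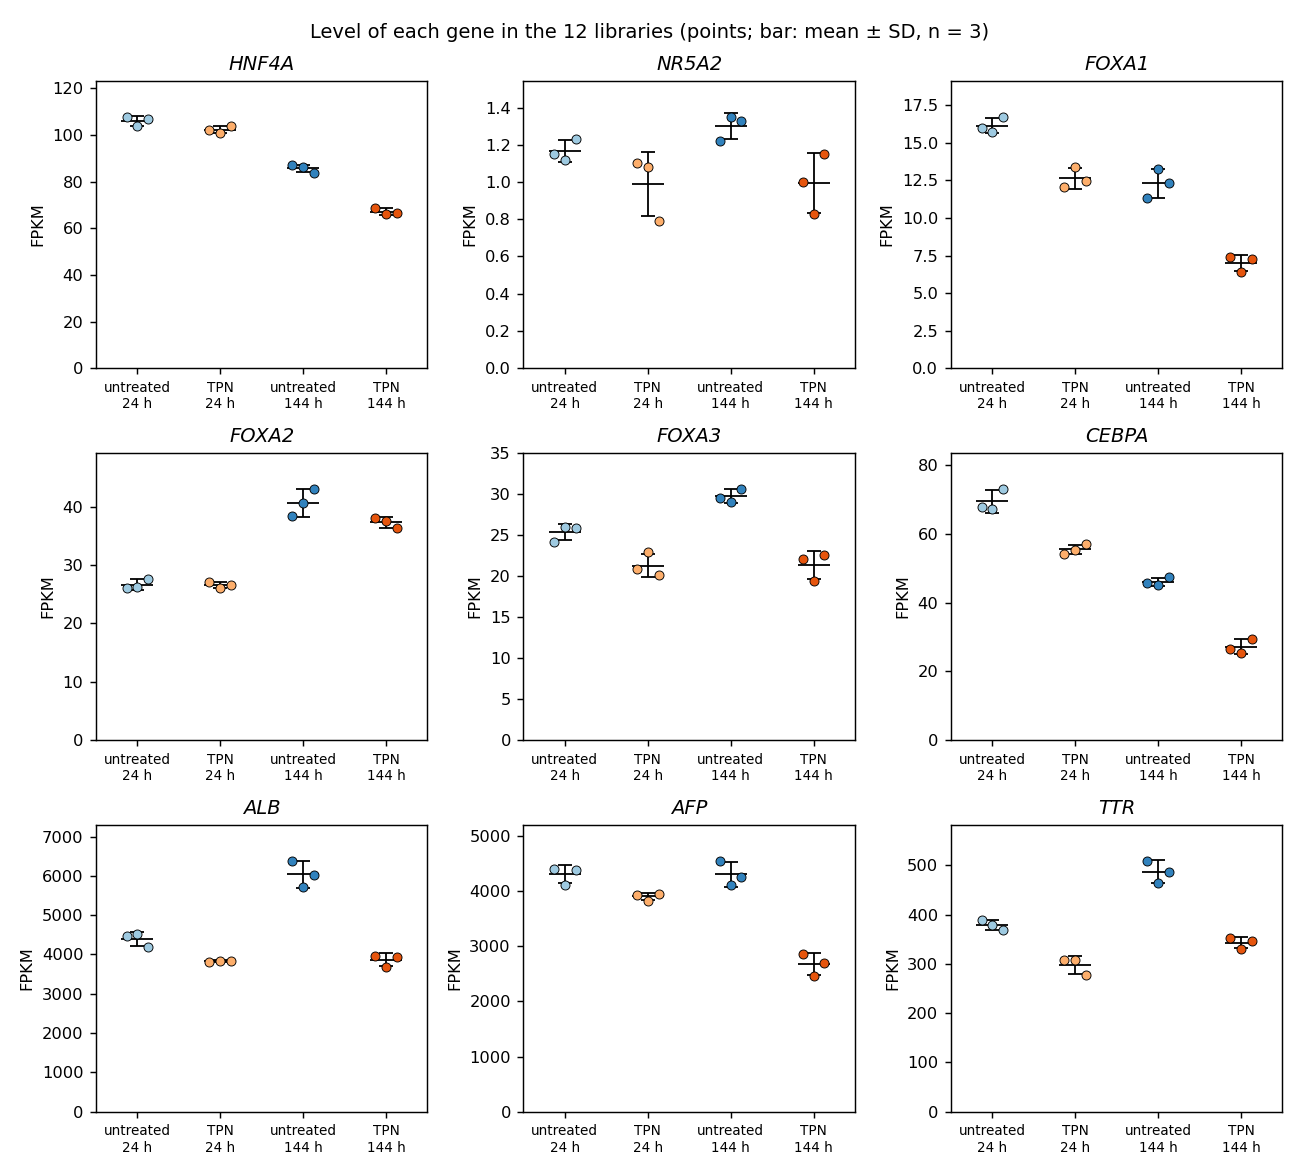
FPKM (vertical axis, linear, from 0) of each of the 9 genes in the 12 libraries, by group; points are libraries, and bars are the mean ± SD of 3. At 144 h the TPN libraries lie below the untreated libraries for all 9 genes, narrowly for FOXA2 (36.3 to 38.1 against 38.3 to 43.1).

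After 144 h of TPN all 9 transcripts were lower than in untreated spheroids of the same age. In this comparison 28.3% of all genes tested were called lower. The log2 fold changes ran from -0.80 for FOXA1 to -0.12 for FOXA2, with a median of -0.51 against -0.018 over all genes tested. FOXA1, CEBPA, ALB and AFP, 4 of the 9, also passed the study's fold threshold of 0.58 on the log2 scale, which 3.73% of all genes passed downwards. The untreated and TPN libraries did not overlap for any of the 9 genes, as was so for 57.3% of all genes. At 24 h 5 of the 9 genes were called lower (FOXA1, FOXA3, CEBPA, ALB and TTR), against 5.46% of all genes. None of the 9 passed the fold threshold by limma at 24 h, against 0.914% of all genes in either direction, while 6 had an unadjusted p below 0.05, against 23.9% of all genes. The median log2 fold change of the 9 was -0.23, against -0.0045 over all genes, and groups did not overlap for 7 of the 9, against 29.9% of all genes.

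**Figure D2:**
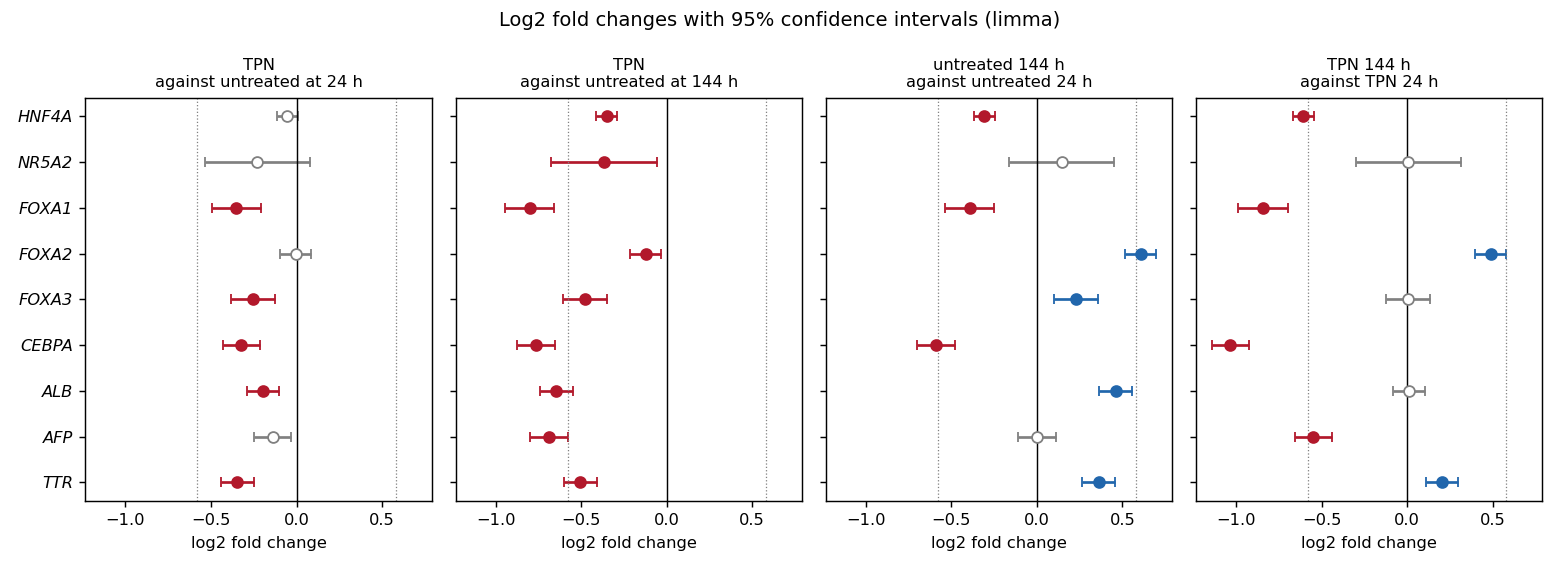
Log2 fold change (horizontal axis) of each gene in 4 comparisons, with 95% confidence intervals from limma; filled points were called (red lower, blue higher), open grey points were not, and dotted lines mark 0.58 in either direction. All 9 points are red at 144 h of TPN, while over time the genes split, from -1.03 for CEBPA to 0.61 for FOXA2.

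HNF4A was lower after 144 h of TPN and did not pass the test after 24 h. It read 107.78, 103.84 and 106.79 FPKM in untreated spheroids at 24 h and 102.00, 100.95 and 103.98 after 24 h of TPN. At 144 h it read 87.03, 86.13 and 83.91 in untreated and 68.88, 65.92 and 66.75 in TPN libraries. The 24 h groups touched in 1 library each, and both groups at 144 h lay below both groups at 24 h without overlap. The log2 fold change with TPN was -0.053 ± 0.028 (SE, n = 3 against 3; limma adjusted p = 0.280) at 24 h and -0.35 ± 0.028 (limma adjusted p = 2.36e-07) at 144 h, a level 0.784 times that of untreated spheroids. The effect at 144 h minus that at 24 h was -0.30 ± 0.040 (limma adjusted p = 1.06e-04). The means descended from 106.1 FPKM (untreated, 24 h) through 102.3 (TPN, 24 h) and 85.7 (untreated, 144 h) to 67.2 (TPN, 144 h), and only the groups at 24 h overlapped.

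NR5A2 was the weakest of the 9 genes. The untreated libraries read 1.15, 1.12 and 1.23 FPKM at 24 h and 1.22, 1.35 and 1.33 at 144 h. The TPN libraries read 1.10, 1.08 and 0.79 at 24 h and 1.00, 0.83 and 1.15 at 144 h. All TPN values were below all untreated values of the same time, with replicate 3 of the TPN libraries the lowest at 24 h. NR5A2 was called lower at 144 h (log2 fold change -0.37 ± 0.143, SE; limma adjusted p = 0.0455) and not at 24 h (-0.23 ± 0.143; limma adjusted p = 0.366). The call at 144 h sat at the threshold. It was lost without the filter on low values (limma adjusted p = 0.0658), with only the 144 h groups in the model (0.0528), and in 8 of the 12 fits that left out 1 library, with limma adjusted p values of 0.0541 to 0.18. Those were the fits without any one of the untreated libraries and the fits without TPN replicate 1 (0.0795) or 2 (0.18) at 144 h.

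The 3 FOXA genes, which encode related forkhead proteins, are given in turn. FOXA1 was lower with TPN at both times. It read 15.98, 15.73 and 16.73 FPKM in untreated and 12.07, 13.40 and 12.46 in TPN libraries at 24 h. At 144 h FOXA1 read 11.32, 13.24 and 12.33 in untreated and 7.39, 6.40 and 7.25 in TPN libraries. Untreated spheroids at 144 h thus overlapped with TPN spheroids at 24 h, while the other groups stood apart from each other. With TPN, FOXA1 changed by -0.35 ± 0.067 (SE; limma adjusted p = 0.00393) on the log2 scale at 24 h and by -0.80 ± 0.067 (limma adjusted p = 3.58e-07) at 144 h, to 0.574 times the untreated level. The effects at the 2 times differed by -0.45 ± 0.095 (limma adjusted p = 0.00291).

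FOXA2 was lower with TPN at 144 h by a small margin. Its libraries read 26.00, 26.28 and 27.66 FPKM in untreated and 27.11, 26.06 and 26.52 in TPN spheroids at 24 h. At 144 h they read 38.32, 40.62 and 43.08 in untreated and 38.10, 37.53 and 36.30 in TPN spheroids. The values at 24 h overlapped, and at 144 h the highest TPN library lay just under the lowest untreated one. The log2 fold change with TPN was -0.0042 (95% confidence interval -0.096 to 0.088; limma adjusted p = 0.969) at 24 h and -0.12 ± 0.043 (SE; limma adjusted p = 0.0266) at 144 h. The call at 144 h was lost without untreated replicate 2 (limma adjusted p = 0.0573) or 3 (0.13), without TPN replicate 3 (0.0915), and with quantile normalization (0.0526).

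FOXA3 was likewise lower at 24 h and at 144 h. It read 24.21, 25.97 and 25.89 FPKM in untreated and 20.84, 22.88 and 20.10 in TPN libraries at 24 h. Its 144 h values were 29.50, 29.08 and 30.66 in untreated and 22.13, 19.43 and 22.57 in TPN libraries. The TPN groups of both times overlapped with each other and lay below both untreated groups. The log2 fold change was -0.25 ± 0.059 (SE; limma adjusted p = 0.0142) at 24 h and -0.48 ± 0.059 (limma adjusted p = 1.58e-05) at 144 h. The call at 24 h was lost without untreated replicate 2 (limma adjusted p = 0.0558) or 3 (0.0554) and without TPN replicate 1 (0.0531) or 3 (0.065). The difference between the effects, -0.22 ± 0.084, did not pass (limma adjusted p = 0.0594), and it passed without TPN replicate 3 at 24 h (0.0392) or at 144 h (0.0373).

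Of the summed FPKM of the 3 FOXA genes, the mean share of FOXA2 was larger and that of FOXA1 smaller with TPN and at the later time. The mean share of FOXA1 was 23.7% ± 0.511 (SD, n = 3) in untreated and 20.9% ± 0.712 in TPN spheroids at 24 h, and 14.9% ± 0.952 and 10.7% ± 0.489 at 144 h. FOXA2 took 39.1% ± 0.383 and 44.0% ± 1.87 at 24 h and 49.2% ± 0.830 and 56.8% ± 2.21 at 144 h. For both genes the 2 groups compared did not overlap at either time (two-sided exact permutation p = 0.1, the smallest that 3 against 3 libraries allow). The share of FOXA3 went from 37.2% ± 0.873 to 35.2% ± 1.39 at 24 h (exact permutation p = 0.2) and from 36.0% ± 1.15 to 32.5% ± 1.75 at 144 h (exact permutation p = 0.1).

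**Figure D3:**
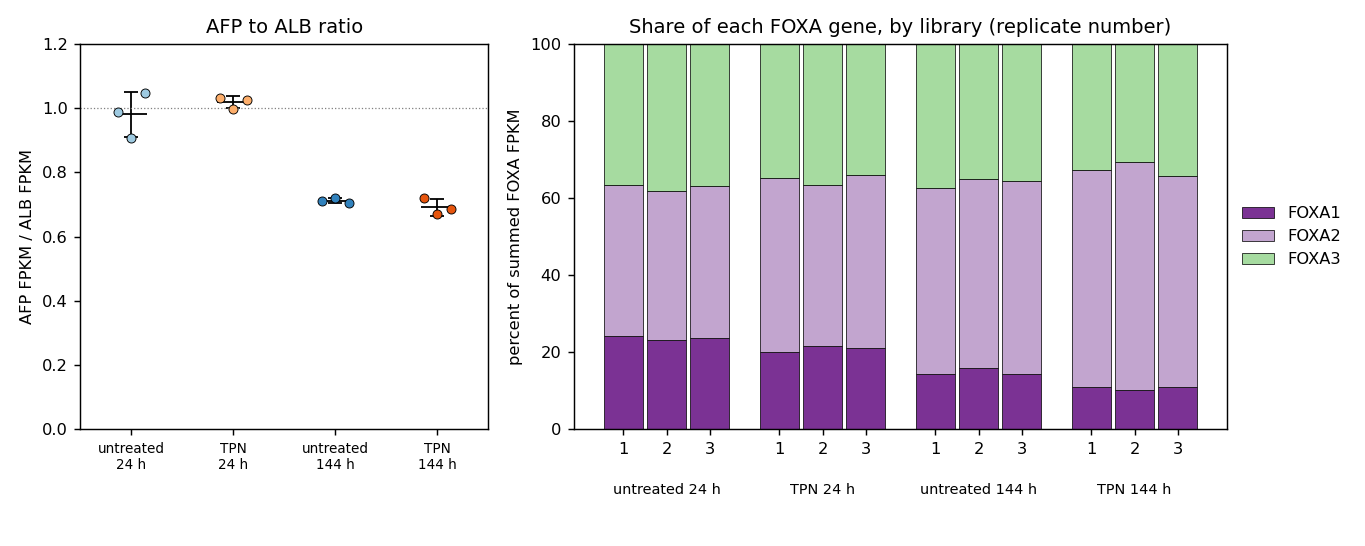
Left, AFP to ALB ratio of FPKM (vertical axis from 0) by library, with the mean ± SD of 3; right, the percent of the summed FOXA FPKM taken by FOXA1, FOXA2 and FOXA3 in each library. The ratio lies near 1 at 24 h and near 0.7 at 144 h with or without TPN, and the FOXA1 share runs from 24.1% down to 10.1%.

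CEBPA, a leucine zipper factor of the differentiated hepatocyte, fell with TPN at both times and with time in both treatments. It read 67.79, 67.35 and 73.15 FPKM in untreated and 54.10, 55.36 and 56.92 in TPN libraries at 24 h. At 144 h the values were 45.58, 45.19 and 47.40 in untreated and 26.60, 25.26 and 29.47 in TPN libraries. No pair of groups overlapped, and the order was untreated 24 h, TPN 24 h, untreated 144 h, TPN 144 h. The log2 fold change with TPN was -0.32 ± 0.051 (SE; limma adjusted p = 0.001) at 24 h and -0.77 ± 0.051 (limma adjusted p = 3.73e-08) at 144 h, to 0.588 times the untreated level. The effects differed by -0.44 ± 0.072 (limma adjusted p = 4.70e-04).

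ALB was lower with TPN at both times, and more so at 144 h, when untreated spheroids had more of it than at 24 h. Untreated libraries read 4460.03, 4526.21 and 4190.54 FPKM at 24 h and 6390.71, 5709.30 and 6030.79 at 144 h. TPN libraries read 3806.89, 3835.43 and 3847.10 at 24 h and 3974.35, 3674.08 and 3940.60 at 144 h. The TPN groups of both times overlapped, and all 6 TPN libraries lay below all 6 untreated libraries. The log2 fold change with TPN was -0.20 ± 0.044 (SE; limma adjusted p = 0.0104) at 24 h and -0.65 ± 0.044 (limma adjusted p = 4.69e-08) at 144 h, when the level was 0.640 times that of untreated spheroids. The effects differed by -0.45 ± 0.062 (limma adjusted p = 1.39e-04).

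AFP was lowest after 144 h of TPN. It read 4400.78, 4111.54 and 4388.18 FPKM in untreated and 3927.61, 3823.58 and 3949.70 in TPN libraries at 24 h. Later it read 4552.18, 4108.85 and 4250.40 in untreated and 2861.52, 2458.99 and 2698.61 in TPN libraries at 144 h. The untreated groups of both times overlapped, and the TPN group at 144 h stood below every other library. AFP was not called at 24 h (log2 fold change -0.14 ± 0.051, SE; limma adjusted p = 0.108), although the groups did not overlap, and it was called with only the 24 h groups in the model (limma adjusted p = 0.0322). At 144 h it changed by -0.69 ± 0.051 (limma adjusted p = 1.23e-07), and the effects differed by -0.55 ± 0.073 (limma adjusted p = 1.05e-04).

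The mean ratio of the fetal to the adult albumin-family gene was lower at the later time and nearly equal with and without TPN. The AFP to ALB ratio of FPKM was 0.981 ± 0.0696 (SD, n = 3) in untreated and 1.02 ± 0.0188 in TPN spheroids at 24 h. At 144 h it was 0.712 ± 0.00745 and 0.691 ± 0.0260. Tested on the log2 scale, the TPN and untreated libraries overlapped at 24 h (two-sided exact permutation p = 0.6) and at 144 h (exact permutation p = 0.4). Between the times the libraries did not overlap in either treatment (exact permutation p = 0.1 in each, the smallest possible).

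TTR fell with TPN at both times. It read 389.21, 379.16 and 369.48 FPKM in untreated and 309.03, 308.41 and 277.89 in TPN libraries at 24 h. At 144 h it read 510.10, 464.75 and 487.55 in untreated and 352.54, 331.40 and 345.80 in TPN libraries. The 4 groups were all separate, with TPN spheroids of either time below untreated spheroids of either time. The log2 fold change was -0.35 ± 0.044 (SE; limma adjusted p = 1.94e-04) at 24 h and -0.51 ± 0.044 (limma adjusted p = 5.87e-07) at 144 h. The difference of the effects, -0.16 ± 0.063, did not pass (limma adjusted p = 0.0730), and it passed without TPN replicate 3 at 24 h (0.0134) or untreated replicate 2 at 144 h (0.0383).

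In all, the effect of TPN at 144 h was more negative than that at 24 h for 5 of the 9 genes by the interaction test (HNF4A, FOXA1, CEBPA, ALB and AFP), against 16.3% of all genes tested. NR5A2 (-0.14; limma adjusted p = 0.647) and FOXA2 (-0.12; limma adjusted p = 0.157) did not pass with all libraries, and FOXA2 passed without untreated replicate 1 at 144 h (0.0481).

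Between 24 h and 144 h the genes moved in both directions. The 144 h groups of both comparisons below are the ones used above, so the 4 comparisons share libraries. Over all genes tested the median change with time was -0.18 in untreated and in TPN spheroids, and median ratio scaling moved it to -0.0078 and -0.011, so each gene is also given relative to that median. In untreated spheroids 4 of the 9 genes were called higher (FOXA2, FOXA3, ALB and TTR), against 20.1% of all genes, and 3 lower (HNF4A, FOXA1 and CEBPA), against 52.4%. FOXA2 upwards and CEBPA downwards also passed the fold threshold, against 6.80% and 12.2% of all genes. CEBPA did not pass it without untreated replicate 3 at 24 h (-0.55) or replicate 2 at 144 h (-0.577), nor FOXA2 without untreated replicate 3 at 144 h (0.565). With median ratio scaling CEBPA did not pass it either (-0.41), whereas FOXA2 (0.78) and ALB (0.64) passed it upwards. Groups did not overlap for 7 of the 9, against 74.9% of all genes. FOXA2 changed by 0.61 ± 0.043 (SE; limma adjusted p = 2.35e-08), which is 0.79 above the median of all genes, and ALB by 0.46 ± 0.044 (limma adjusted p = 4.69e-07), 0.64 above it. TTR changed by 0.36 (limma adjusted p = 5.75e-06) and FOXA3 by 0.23 (limma adjusted p = 0.00324), which is 0.54 and 0.41 above it. CEBPA changed by -0.59 ± 0.051 (limma adjusted p = 1.68e-07), FOXA1 by -0.39 (limma adjusted p = 1.19e-04) and HNF4A by -0.31 (limma adjusted p = 2.98e-07). Relative to the median these were -0.41, -0.21 and -0.13, and all 3 were still called lower with median ratio scaling. NR5A2 did not pass (0.14, or 0.33 above the median; limma adjusted p = 0.378). The direction of AFP depended on the scaling: it was 0.00061 as deposited, 0.18 above the median (limma adjusted p = 0.992), 0.18 with median ratio scaling (0.00684) and -0.29 with quantile normalization (1.24e-04).

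In TPN spheroids the same span of culture saw 2 of the 9 genes called higher (FOXA2 and TTR), against 24.2% of all genes, and 4 lower (HNF4A, FOXA1, CEBPA and AFP), against 52.0%. HNF4A, FOXA1 and CEBPA, 3 of the 9, passed the fold threshold downwards, against 17.2% of all genes. AFP joined them without TPN replicate 1 at 144 h (-0.60). With median ratio scaling HNF4A did not pass it (-0.43), and FOXA2 passed it upwards (0.66). Groups did not overlap for 6 of the 9, against 77.9% of all genes. CEBPA fell most, by 1.03 on the log2 scale (limma adjusted p = 3.78e-10), to 0.489 times its level after 24 h of TPN. FOXA1 changed by -0.84 (limma adjusted p = 5.10e-08), HNF4A by -0.61 (limma adjusted p = 2.15e-10) and AFP by -0.55 (limma adjusted p = 2.95e-07). Relative to the median of all genes, CEBPA, FOXA1, HNF4A and AFP changed by -0.85, -0.66, -0.42 and -0.36. FOXA2 rose by 0.49 (limma adjusted p = 1.36e-07) and TTR by 0.20 (limma adjusted p = 8.63e-04), which is 0.67 and 0.39 above the median. NR5A2 did not pass (0.0070, or 0.19 above the median; limma adjusted p = 0.966), and its sign changed with the scaling. ALB (0.012; limma adjusted p = 0.819) and FOXA3 (0.0060; limma adjusted p = 0.931), which were 0.20 and 0.19 above the median, did not pass as deposited, but were called higher with median ratio scaling (0.19, limma adjusted p = 0.00168, and 0.18, limma adjusted p = 0.0139). With quantile normalization ALB was called lower (-0.24; limma adjusted p = 5.03e-04), so no direction over time is given for it in TPN spheroids.

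Other genes of the same circuit and the same secretory programme were counted from lists by function. Some genes stand in more than 1 list. Of all 11713 genes tested, 1230 were called after 24 h of TPN, 640 of them lower, and 6144 after 144 h, 3315 of them lower. The counts of the lists are to be read beside these. Of 33 other liver transcription factors tested, 4 were higher and 5 lower after 24 h of TPN, and 6 were higher and 16 lower after 144 h, when their median change was -0.14 on the log2 scale. KLF15, a glucocorticoid-responsive factor of amino acid metabolism, changed by -1.35 at 144 h (limma adjusted p = 5.00e-04), ONECUT1, a partner of HNF4A and FOXA2 in the circuit, by -0.97 (limma adjusted p = 2.41e-06), and CREB3L3, a membrane-bound factor of fasting lipid metabolism, by 1.01 (limma adjusted p = 3.73e-08). CEBPB changed by 0.69 (limma adjusted p = 1.51e-08) and CEBPD by 0.86 (limma adjusted p = 1.84e-07) at 144 h, opposite in sign to CEBPA. At 24 h TBX3, a factor of the hepatoblast, changed by -0.42 (limma adjusted p = 2.17e-06), NR1H4, the bile acid receptor, by -0.41 (limma adjusted p = 0.00363) and NR3C1, the glucocorticoid receptor, by -0.36 (limma adjusted p = 0.00217). TBX3 (-0.046, limma adjusted p = 0.268) and NR3C1 (-0.083, limma adjusted p = 0.280) did not pass at 144 h. NR1H4 was still lower then (-0.81, limma adjusted p = 1.35e-06).

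Genes listed as HNF4A targets did not all follow HNF4A. Of 20 tested, 3 were higher and 3 lower at 24 h, and 4 were higher and 13 lower at 144 h, with medians of -0.047 and -0.23. APOA4, an apolipoprotein of triglyceride-rich particles, changed by 1.19 (limma adjusted p = 1.72e-08) and PCK1, the first committed enzyme of gluconeogenesis, by 0.96 (limma adjusted p = 4.81e-06) at 144 h, while F12, coagulation factor XII, changed by -0.78 (limma adjusted p = 1.65e-05). At 24 h TAT, tyrosine aminotransferase, changed by 0.48 (limma adjusted p = 4.29e-04), NR1I2, the xenobiotic receptor PXR, by 0.30 (limma adjusted p = 0.00743) and APOA4 by 0.28 (limma adjusted p = 0.0259). Of 8 NR5A2 targets tested, 2 were lower and 6 did not pass at 24 h, and 1 was higher and 6 lower at 144 h, with a median of -0.31. NR0B2, the corepressor SHP, changed by -0.58 (limma adjusted p = 9.90e-09), ABCG8, part of the sterol exporter, by -0.54 (limma adjusted p = 1.90e-05) and CETP, the cholesteryl ester transfer protein, by -0.45 (limma adjusted p = 5.07e-04) at 144 h.

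Other secreted plasma proteins changed in both directions at 144 h. Of 30 tested, 13 were lower and 17 did not pass at 24 h, and 9 were higher and 13 lower at 144 h, with medians of -0.11 and -0.056. KNG1, the kininogen precursor, changed by -1.11 (limma adjusted p = 0.00231), FGB by -0.58 (limma adjusted p = 3.50e-07) and FGA by -0.38 (limma adjusted p = 1.51e-05) at 24 h, the last 2 being chains of fibrinogen. At 144 h HP, the haemoglobin scavenger haptoglobin, changed by 1.08 (limma adjusted p = 2.54e-08) and HPX, the haem scavenger hemopexin, by 0.76 (limma adjusted p = 0.00341), opposite in sign to ALB, AFP and TTR, and KNG1 changed by -0.70 (limma adjusted p = 0.00792). FGA was called higher at 144 h (0.23, limma adjusted p = 1.7e-04), and FGB did not pass (0.057, limma adjusted p = 0.223). HP had been called lower at 24 h (-0.34, limma adjusted p = 0.00531), when HPX did not pass (-0.50, limma adjusted p = 0.111).

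Of 18 fetal liver and hepatoma genes tested, 5 were lower and 13 did not pass at 24 h, and 2 were higher and 9 lower at 144 h (medians -0.072 and -0.14). DLK1, a hepatoblast surface protein, changed by -0.99 (limma adjusted p = 4.95e-10), CD24 by -0.82 (limma adjusted p = 6.55e-08) and SOX4, a factor of progenitor cells, by 0.92 (limma adjusted p = 1.51e-08) at 144 h. CYP3A7, the fetal form of the CYP3A enzymes, changed by -1.14 at 24 h (limma adjusted p = 2.68e-05). Of 18 enzymes and transporters of mature hepatocytes, 1 was higher and 3 lower at 24 h, and 6 were higher and 7 lower at 144 h (medians -0.063 and -0.023). ADH4, an alcohol dehydrogenase, changed by 0.88 (limma adjusted p = 8.27e-05) and HAL, which degrades histidine, by -0.81 (limma adjusted p = 9.80e-04) at 144 h. Of 10 housekeeping genes, 1 was higher and 9 did not pass at 24 h, and 2 were higher and 6 lower at 144 h, with a median of -0.15.

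**Figure D4:**
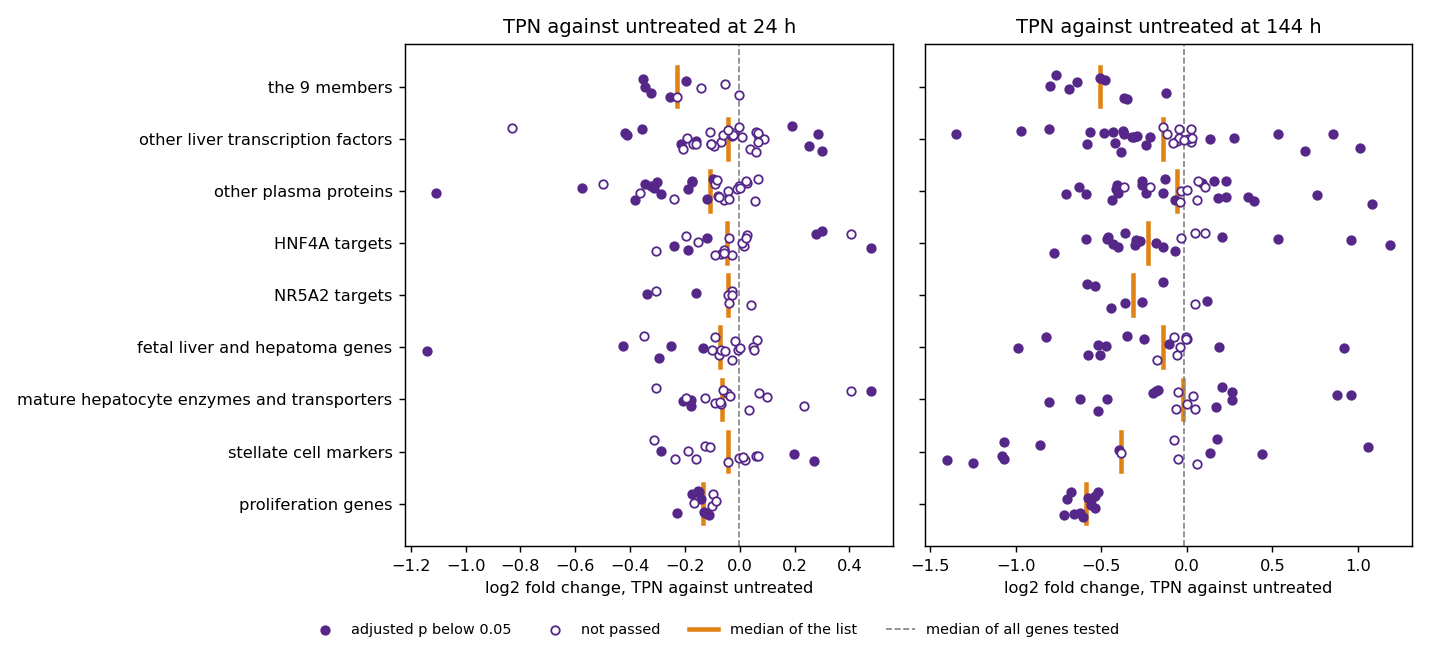
Log2 fold change of TPN against untreated spheroids (horizontal axes, which differ in range) at 24 h (left) and 144 h (right) for the 9 genes and 8 lists; each point is a gene, filled where called, orange bars are list medians and the dashed line is the median of all genes tested. At 144 h the 9 genes all lie left of 0, with a median of -0.51, whereas the other plasma proteins spread to both sides, with a median of -0.056.

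Proliferation genes moved with the same groups, whereas most stellate cell markers did not pass after 24 h of TPN. Of 15 stellate cell markers tested, 2 were higher and 1 lower after 24 h of TPN and 4 were higher and 7 lower after 144 h. Between 24 h and 144 h, 12 of the 15 were lower and 2 higher in untreated spheroids, against 52.4% and 20.1% of all genes. COL1A1, the main fibrillar collagen, averaged 15.1 FPKM in both groups at 24 h, 1.92 in untreated and 0.747 in TPN spheroids at 144 h. PDGFRB averaged 3.10 (untreated) and 3.01 (TPN) FPKM at 24 h and 3.08 (untreated) and 2.32 (TPN) at 144 h. In the same order ACTA2 averaged 57.8, 47.3, 47.9 and 45.4 FPKM, and DES was near 0 throughout, at 0.030 to 0.060. The summed FPKM of the stellate list ran from 288.3 to 299.8, 286.4 to 294.3, 287.8 to 300.4 and 357.6 to 367.9 in the same order. At 144 h LOX (166 FPKM) and TIMP1 (91.4), which other cells also express, made up most of it in TPN spheroids. Of the endothelial and immune markers only CD68, a lysosomal protein, reached the filter. It averaged 46.7 (untreated) and 52.6 (TPN) FPKM at 24 h and 47.9 (untreated) and 63.7 (TPN) at 144 h, and was called higher with TPN at 24 h (0.17; limma adjusted p = 0.00373) and at 144 h (0.41; limma adjusted p = 1.84e-07), opposite in sign to the 9 genes. All 12 proliferation genes tested were lower after 144 h of TPN and 8 after 24 h, against 28.3% and 5.46% of all genes. Their summed FPKM ran from 863.4 to 874.8, 783.5 to 804.2, 570.3 to 590.3 and 375.9 to 383.5 in the same order of groups. This is also the descending order of HNF4A and CEBPA. The part of these shifts in the values of the 9 genes was not tested.

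The genes whose log2 values ran most like those of HNF4A over the 12 libraries were KCTD3 (r = 0.998), EZH2 (r = 0.997) and TPX2 (r = 0.997), the last of which is on the proliferation list. For FOXA3 they were PLPPR1 (r = 0.954), ARHGEF10L (r = 0.952) and SERPINA5 (r = 0.950). ALB ran most like CYP19A1 (r = 0.984), SLC13A5 (r = 0.983) and TGFBI (r = 0.978), and AFP most like SELENOP (r = 0.991), C2orf72 (r = 0.987) and CIDEB (r = 0.982). TTR ran most like HAMP (r = 0.972), CHKA (r = 0.962) and CYP19A1 (r = 0.962). Among the 9, HNF4A ran with CEBPA (r = 0.974), FOXA1 (r = 0.934) and AFP (r = 0.836), and ALB with TTR (r = 0.947) and FOXA3 (r = 0.925). HNF4A did not run with ALB (r = 0.041), TTR (r = -0.11), FOXA3 (r = 0.16) or NR5A2 (r = 0.15). It ran opposite to FOXA2 (r = -0.78). These are Pearson correlations over 12 libraries that fall into 4 groups, so they describe mainly the group means.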

How the data were processed

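RNA of 12 libraries of spheroid co-cultures was sequenced on the DNBSEQ platform. The authors filtered reads with SOAPnuke, mapped them with HISAT2 2.0.4 to GRCh38.p13 and with Bowtie2 2.2.5 to transcripts, and calculated FPKM with RSEM, and these FPKM values were deposited with 2 decimals, 1 column per library. The values were used as deposited, and 20 lines without values, which continue annotation cells, were skipped. Symbols and positions came from the same table.

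The 16705 genes were filtered to the 11713 with a mean FPKM of at least 0.5, log2-transformed with a pseudocount of 0.1, and fitted with limma 3.58.1 in R 4.3.3 for 4 groups, with an intensity trend and 8 residual degrees of freedom. Ratios and shares were compared with two-sided exact permutation tests (20 arrangements). The text names the 9 genes, defining stellate markers and the 3 genes most correlated with HNF4A, FOXA3, ALB, AFP and TTR. From the lists it names some of the up to 3 called genes with the largest change per list and comparison, mainly for TPN against untreated spheroids. These genes, lists and rules were chosen with earlier results of these data known. Promoters came from RefSeq. The start or end of FOXA1, FOXA2, CEBPA, ALB and AFP differs between the authors' table and RefSeq, as does the strand of CEBPA, and the ALB and AFP promoters lie within the spans of the table.

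Depth was estimated from 141 nonzero values of 30 short genes, 96.45% of them within 0.15 fragments of a whole number, with GENCODE v44 lengths that need not be those of the authors. It limits precision at low FPKM, as for NR5A2. In simulated data for TPN against untreated at 144 h, 96 of 100 genes changed by 1 and 78 of 100 changed by 0.4 on the log2 scale were recovered among 11713 genes, with 11 false calls of 11513. Only those genes were changed and noise was drawn independently for each gene, whereas 6144 genes were called at 144 h in the data. The rates therefore need not hold for the data. Alternatives changed the pseudocount, filter, scaling, model, trend and replicate block, or omitted 1 library at a time. Removing the GC and length trend and leaving out the 10 most abundant genes were added after seeing the data. Python 3.11.15 served for tables and figures.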

Additional observations from a re-analysis of the deposited data

Results flagged for a closer look

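By limma's interaction test, 5 of the 9 genes responded to TPN by a different amount at the 2 times. The same test called 3565 of all 11713 genes in either direction, and 16.3% of all genes in the negative direction of these 5. On the log2 scale the effect at 144 h minus that at 24 h was -0.30 for HNF4A, -0.45 for FOXA1, -0.44 for CEBPA, -0.45 for ALB and -0.55 for AFP. All 5 differences kept their sign and were called in each alternative run, including each fit without 1 library.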

How the results depend on the processing

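With TPN against untreated spheroids, the 9 genes kept their direction under the 12 alternatives that kept every library. The number of the 9 that was called ran from 5 to 6 at 24 h and from 8 to 9 at 144 h. Over time the direction of some genes near 0 depended on the scaling. With libraries scaled to the same total, AFP in untreated spheroids became -0.015, and in TPN spheroids NR5A2 became -0.012, FOXA3 -0.014 and ALB -0.0089. Quantile normalization gave AFP -0.29 in untreated spheroids, and NR5A2 -0.023 and ALB -0.24 in TPN spheroids. It also moved the number of genes past the fold threshold to 1 for the difference of effects (0 with the deposited scaling). Over time that number became 1 in untreated spheroids (2 with the deposited scaling) and 4 in TPN spheroids (3 with the deposited scaling).

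Leaving out each library in turn, the number of the 9 called with TPN ran from 4 to 5 at 24 h and from 7 to 9 at 144 h. The number past the fold threshold ran from 0 to 1 for the difference of effects. Over time it ran from 1 to 2 in untreated spheroids and from 3 to 4 in TPN spheroids. FOXA2 with TPN at 24 h ran from -0.022 to 0.023, and AFP over time in untreated spheroids from -0.041 to 0.033. In TPN spheroids over time, NR5A2 ran from -0.13 to 0.12, FOXA3 from -0.035 to 0.073 and ALB from -0.0094 to 0.047.

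The libraries were not treated as paired, since 5 of the 18 same-numbered pairs had correlations over 0.1 (range -0.083 to 0.151). In 11 of 18 comparisons of a library with the libraries of another group, the best correlation was with its own number, a hint from the data and not the design. With a replicate block, 6, 8, 6, 7 and 6 genes were called in the 5 comparisons, against 5, 9, 5, 7 and 6 without it. AFP at 24 h was called (limma adjusted p = 0.0269), NR5A2 at 144 h was not (0.0667), and the difference of effects of TTR was (0.0446). NR5A2 has no value under the filter of 5 FPKM, and the difference of effects none with only the groups compared. With the GC and length trend removed, added after seeing the data, NR5A2 at 144 h was not called (limma adjusted p = 0.0661). The differences of effects of FOXA3 and TTR, not called as deposited, were called with that trend removed (limma adjusted p = 0.0353 and 0.0386), with libraries scaled to the same total (0.0472 and 0.0434) and without the 10 most abundant genes (0.0445 and 0.0423). The causes of these shifts were not tested.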
